A study of Mus musculus with 12 samples.

Results

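The 10 genes described here encode the Fos and Jun families of the transcription factor AP-1 and other immediate-early factors. They are Fos, Fosb, Fosl1, Fosl2, Jun, Junb, Jund, Egr1, Atf3 and Ier3, chosen by gene name from the 14907 genes of the deposited tables. All 10 were in the tables with values in all 12 libraries. Of them, 8 reached a group mean of 10, the minimum set for a test, and were among the 12385 genes tested, whereas Fos and Fosb did not reach it. The rule uses the names only.

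The study measured polyadenylated RNA by 3′ sequencing (QuantSeq) in cultured mesenchymal cells, the connective-tissue cells beneath the epithelium, from the small intestine of C57/Bl6 mice. Cells were primary cells at passage 3, sorted on GFP and deprived of serum overnight. The 4 groups of 3 libraries were wild type (wt) untreated, wt LPS, MyD88ko untreated and MyD88ko LPS, and the LPS groups had received 2 µg/ml of E. coli lipopolysaccharide, a bacterial cell-wall component, for 6 hours. The MyD88ko cells carried the alleles ColVIcre-MyD88F/F-RosamTmG, in which a Cre recombinase named for collagen VI acts on a loxP-flanked MyD88 gene and on a reporter that switches to GFP. MyD88F/F and RosamTmG were shared by all 4 groups per the labels, and the wt genotype label names no Cre, whereas the series' design text calls the wt cells Cre-positive. If the genotype label is right, loss of MyD88 and presence of Cre cannot be told apart. The labels number the replicates without saying whether they are separate animals, so the p-values measure the spread between these libraries, which may be technical.

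AP-1 is a dimer that binds DNA through a basic leucine zipper. Jun proteins pair with each other or with Fos proteins, and Fos proteins pair with Jun proteins only. LPS is sensed by TLR4, whose adaptors MyD88 and TRIF lead to NF-kB and to MAP kinases, and the MAP kinases switch on Jun and Fos proteins and the transcription of their genes. In fibroblasts most of these transcripts rise within minutes of a stimulus and are short-lived, so that a sample taken hours later shows what remains or was made anew. Fewer cells that express a gene and less RNA per cell cannot be told apart in such bulk libraries.

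Promoter sequences are printed for Junb, Jun and Ier3, the 3 genes of the 10 that rose with LPS in at least 1 genotype, to show the sequence just upstream of where their transcripts start. They are the 250 bases before the RefSeq start on GRCm38.p6, 5′ to 3′ on the gene's strand, with capitals marking a match to a motif that was chosen after the data were seen.
Junb, chr8:84978749-84978998, minus strand: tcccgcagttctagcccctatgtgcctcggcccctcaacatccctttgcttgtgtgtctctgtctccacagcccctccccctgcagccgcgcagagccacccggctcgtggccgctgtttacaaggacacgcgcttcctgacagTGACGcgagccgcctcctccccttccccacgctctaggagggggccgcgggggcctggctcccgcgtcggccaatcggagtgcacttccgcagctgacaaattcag
Jun, chr4:95052223-95052472, minus strand: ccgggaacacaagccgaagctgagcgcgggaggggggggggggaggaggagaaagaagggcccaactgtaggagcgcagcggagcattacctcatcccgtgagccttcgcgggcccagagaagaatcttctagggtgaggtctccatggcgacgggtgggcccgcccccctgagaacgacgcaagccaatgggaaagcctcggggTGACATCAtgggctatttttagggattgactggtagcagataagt
Ier3, chr17:35821463-35821712, plus strand: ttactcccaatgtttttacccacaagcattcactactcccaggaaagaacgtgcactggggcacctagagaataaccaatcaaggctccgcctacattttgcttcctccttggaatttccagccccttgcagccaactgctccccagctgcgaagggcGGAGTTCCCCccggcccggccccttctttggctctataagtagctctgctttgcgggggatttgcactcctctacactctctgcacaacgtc
In Junb the capitals mark TGACG, the first bases of the cyclic AMP response element, from 106 to 102 bases before the start. In Jun they mark TGACNTCA, an AP-1 and ATF site that is 1 base longer than the classical AP-1 site, from 45 to 38 bases before the start. In Ier3 they mark a match to the NF-kB consensus on the opposite strand, from 92 to 83 bases before the start. The RefSeq start lay 30 bases from the gene start of the deposited tables for Junb, 0 bases for Jun and 29 bases for Ier3.

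RefSeq promoters were matched for 8 of the 10 genes, and those of Fosl1 and Egr1 were not used here. Motifs were searched on both strands of the same 250 bases. The AP-1 motif TGANTCA was found in 0 of the 8 promoters and in 6.75% of 32851 mouse promoters. The cyclic AMP response element TGACGTCA was found in 0 of 8 against 1.55%, and the CArG box, which SRF binds, in 0 of 8 against 1.47%. Among the motifs chosen after the data were seen, TGACNTCA was found in 1 of 8 against 7.49% of promoters, and TGACG in 4 of 8, those of Fos, Fosb, Junb and Atf3, against 17.8%. The NF-kB consensus was found in 4 of 8, those of Fos, Fosb, Fosl2 and Ier3, against 7.25%. The TGACNTCA match of Jun overlaps no TGACG match. A match describes these letters only, and no binding was measured.

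Estimated depth was 2.5 to 5.3 megareads per library, with normalized totals of 3599944 to 4320551. Myd88, the deleted gene, had values of 98 to 103 (untreated) and 171 to 213 (LPS) in the wt groups and of 8 to 14 (untreated) and 5 to 24 (LPS) in the MyD88ko groups, which fits the genotype labels. All 9 mesenchymal markers were present, with summed values of 41814 to 99212 in wt untreated, 69403 to 115581 in wt LPS, 87132 to 108260 in MyD88ko untreated and 129558 to 138889 in MyD88ko LPS. With LPS the sums were higher in MyD88ko than in wt, without overlap. The largest part of them was Col1a1, at 83203, 76251 and 72836 in MyD88ko LPS and 35191, 60610 and 36670 in wt LPS. All other markers but Pdgfra overlapped between these 2 groups. The fibroblast marker Pdgfra went the other way. It was lower in MyD88ko untreated (-1.84, limma adjusted p = 0.00162) and MyD88ko LPS (-1.77, 0.00222) than in wt. Pdgfra was the only 1 of the 9 called in either genotype comparison. The median log2 difference of the 9 between genotypes was 0.24 untreated and 0.08 with LPS. Of 7 leukocyte markers 3 were in the tables, with sums of 15 to 53. Of 9 epithelial markers 6 were in the tables, with sums of 8 to 981 in wt untreated and 4 to 54 in the other 9 libraries. The high values were in wt untreated replicates 1 and 3, where the tight-junction gene Cldn4 had 213 and 122, against 7 in replicate 2 and at most 6 elsewhere. Most of the highest sum, 981 in replicate 3, was Cdh1, at 719 against 3 in replicate 1 and 0 in replicate 2. The goblet-cell gene Muc2 went the other way, listed at 0 in all 6 untreated libraries and at 16, 32 and 11 in wt LPS (limma adjusted p = 0.00464). Cldn4, Cdh1, Muc2, Col1a1 and Pdgfra were picked after their values were seen. Smooth muscle and pericyte markers summed to 17620 to 20360 in wt untreated and 26221 to 36354 in the other groups. Library codes in the labels are all lower in the untreated than in the LPS groups, so that the effect of LPS and that of the series of libraries cannot be told apart. Within each treatment the codes are all lower in MyD88ko than in wt, so that genotype also follows the order of the codes.

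Junb rose with LPS in both genotypes, by more than any other gene of the 10. It encodes a Jun protein that can replace c-Jun in AP-1 and is induced by many cytokines (chromosome 8, 84974484 to 84978718, minus strand, mm10, ENSMUSG00000052837). Its normalized values were 286, 247 and 427 in wt untreated against 1333, 1648 and 1791 in wt LPS. In the MyD88ko cells they were 319, 322 and 313 untreated and 1009, 732 and 2231 with LPS. Every LPS library stood above every untreated library, and replicate 3 of MyD88ko LPS was the highest of all 12. The means were 320.0 ± 94.7 (SD, n = 3), 1591 ± 234, 318 ± 4.58 and 1324 ± 798 in the order wt untreated, wt LPS, MyD88ko untreated and MyD88ko LPS. On the log2(value + 1) scale the change was 2.34 ± 0.30 (SE) in wt, or 5.06-fold, with a limma adjusted p of 4.2e-05. In MyD88ko cells it was 1.89 ± 0.30, or 3.71-fold, with a limma adjusted p of 0.00111. Without MyD88ko LPS replicate 3 the latter change was 1.43, with a limma adjusted p of 0.00128.

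**Figure D1:**
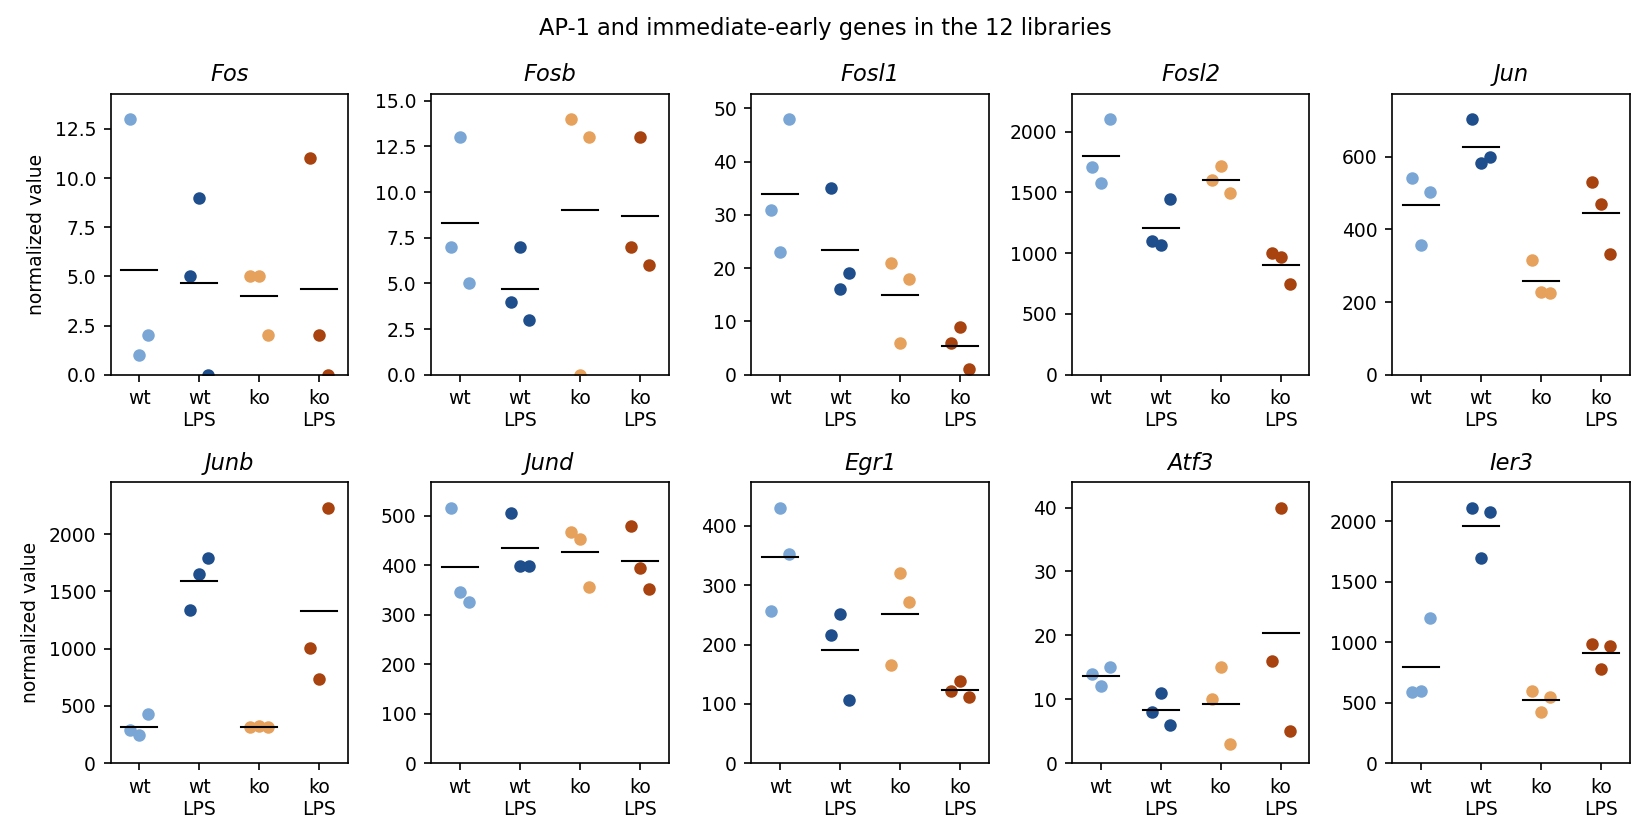
Normalized value of each of the 10 genes in each of the 12 libraries, with a panel and a linear axis from 0 for each gene, points for libraries and a bar for the mean of each group of 3 (wt and ko stand for wt untreated and MyD88ko untreated). Junb runs from 247 to 427 in wt untreated and from 1333 to 1791 in wt LPS, while Fos and Fosb stay at 14 or below in all libraries.

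Jun, the founding member of the family and the gene of c-Jun, rose with LPS in MyD88ko cells (chromosome 4, 95049034 to 95052222, minus strand, ENSMUSG00000052684). Its values were 542, 357 and 502 in wt untreated against 704, 582 and 599 in wt LPS. In MyD88ko cells they were 315, 229 and 226 untreated and 530, 470 and 333 with LPS. The LPS libraries stood above the untreated ones in each genotype without overlap, and the MyD88ko untreated group was the lowest of the 4. The change in MyD88ko cells was 0.78 ± 0.23 (SE, log2), or 1.72-fold, with a limma adjusted p of 0.0485. In wt it was 0.44 ± 0.23, with a limma adjusted p of 0.19. The call in MyD88ko cells held in 10 of 23 alternative settings. It was lost under quantile normalization (limma adjusted p = 0.0519), without trend (0.12), with voom weights (0.0574), without the low-value filter (0.053) and with only the groups compared (0.077). It was lost as well on leaving out untreated replicate 2 (limma adjusted p = 0.168) or 3 (0.167) or LPS replicate 1 (0.154) or 2 (0.137) of that genotype. It was also lost, with the change still at 0.78, without wt untreated replicate 1 (0.0522) or wt LPS replicate 1 (0.0595), 2 (0.062) or 3 (0.0609).

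Jund, the Jun gene whose transcript is held to be the steadiest of the family, passed the test in no comparison (chromosome 8, 70698949 to 70700616, plus strand, ENSMUSG00000071076). Its values were 517, 347 and 326 in wt untreated, then 507, 399 and 399 in wt LPS, 468, 454 and 357 in MyD88ko untreated, with 479, 394 and 352 in MyD88ko LPS. All 4 groups overlapped. The difference with LPS was 0.15 on the log2 scale in wt (95% interval -0.31 to 0.62) and -0.06 in MyD88ko cells (-0.53 to 0.40).

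The makeup of the Jun family's reads is given as shares per library. Junb gave 21.3% to 34.0% of the summed value of Jun, Junb and Jund in wt untreated and 52.4% to 64.2% in wt LPS. In MyD88ko cells its share was 28.9% to 34.9% untreated and 45.9% to 76.5% with LPS. The share of Jund was 26.0% to 38.4% in wt untreated, 14.3% to 19.9% in wt LPS, 39.8% to 45.2% in MyD88ko untreated and 12.1% to 24.7% in MyD88ko LPS. The share of Jun was 37.5% to 40.3% in wt untreated, above its 22.8% to 28.6% in MyD88ko untreated. The summed value itself was 951 to 1345 in wt untreated, 2544 to 2789 in wt LPS, 896 to 1102 in MyD88ko untreated and 1596 to 2916 in MyD88ko LPS. These are shares of 3′ reads, which come from transcript ends and were not divided by transcript length, and no test was run on them.

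**Figure D2:**
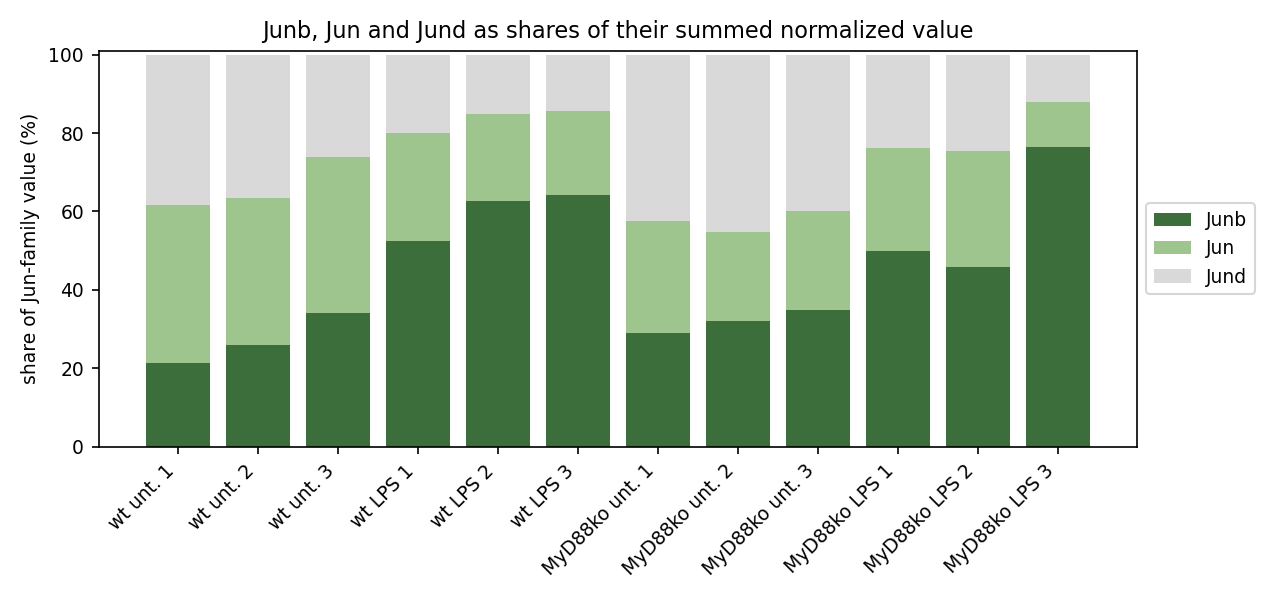
Share of the summed normalized value of Jun, Junb and Jund held by each gene, in percent, stacked for each of the 12 libraries in the 4 groups. The Junb share is at most 34.9% in the 6 untreated libraries and at least 45.9% in the 6 LPS libraries.

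Among the Fos family, Fosl2 (Fra-2) made up nearly all the reads and fell with LPS in both genotypes (chromosome 5, 32135801 to 32157842, plus strand, ENSMUSG00000029135). Its values were 1709, 1579 and 2103 in wt untreated against 1101, 1065 and 1446 in wt LPS. In MyD88ko cells they were 1601, 1716 and 1494 untreated and 997, 967 and 744 with LPS. Every LPS library stood below every untreated one, and the 3 MyD88ko LPS libraries were the lowest of all. The change was -0.58 ± 0.20 (SE, log2) in wt, or 1.50-fold lower, with a limma adjusted p of 0.0474, and -0.84 ± 0.20 in MyD88ko cells, or 1.79-fold lower, with a limma adjusted p of 0.0156. The wt call held in 9 of 23 alternative settings, with adjusted p values from 0.027 to 0.436, and the MyD88ko call in 20 of 23, with values from 0.0119 to 0.0763. With wt untreated replicate 2, the library low in epithelial markers, as the only wt untreated library, the wt change was -0.40 and the limma adjusted p 0.436. Leaving out a wt library ended the wt call for untreated replicate 1 (limma adjusted p = 0.0848) or 3 (0.157) and for LPS replicate 1 (0.146) or 2 (0.15). Leaving out MyD88ko untreated replicate 1 (0.062), 2 (0.0607) or 3 (0.0624) or MyD88ko LPS replicate 2 (0.06) ended it too. The MyD88ko call was lost without untreated replicate 1 (0.0554) or 2 (0.0763).

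Fosl2 gave 96.2% to 99.4% of the summed value of Fos, Fosb, Fosl1 and Fosl2 in every library. Fosl1 (Fra-1), a late-induced member that AP-1 itself switches on, had values of 31, 23 and 48 in wt untreated, then 35, 16 and 19 in wt LPS, 21, 6 and 18 in MyD88ko untreated, with 6, 9 and 1 in MyD88ko LPS (chromosome 19, 5447703 to 5455945, plus strand, ENSMUSG00000024912). Both wt groups stood above the MyD88ko group with the same treatment without overlap. Fos, the classical immediate-early gene (chromosome 12, 85473890 to 85477273, plus strand, ENSMUSG00000021250), had values of 13, 1 and 2 in wt untreated, then 5, 9 and 0 in wt LPS, 5, 5 and 2 in MyD88ko untreated, with 11, 2 and 0 in MyD88ko LPS. Fosb (chromosome 7, 19302696 to 19310051, minus strand, ENSMUSG00000003545) had values of 7, 13 and 5, then 4, 7 and 3, then 14, 0 and 13, and then 7, 13 and 6 in the same order of groups. The estimated reads behind these values were 0 to 14 per library for Fos and 0 to 16 for Fosb. Neither gene was tested, and no difference between groups is read from these values.

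Egr1, a zinc-finger factor induced through SRF and its partners, fell with LPS in wt cells (chromosome 18, 34859823 to 34864984, plus strand, ENSMUSG00000038418). Its values were 257, 431 and 353 in wt untreated against 216, 251 and 107 in wt LPS. In MyD88ko cells they were 165, 320 and 272 untreated and 122, 138 and 112 with LPS. The groups did not overlap in either genotype, though the gap in wt was only from 251 to 257. The change in wt was -0.91 ± 0.31 (SE, log2), or 1.88-fold lower, with a limma adjusted p of 0.0418, and that in MyD88ko cells was -0.97 ± 0.31, with a limma adjusted p of 0.0675. Without wt LPS replicate 3, the lowest of its group, the wt change was -0.54 and the limma adjusted p 0.238. The wt call was also lost without wt untreated replicate 2 (0.149) or 3 (0.0985), wt LPS replicate 1 (0.0563), MyD88ko untreated replicate 3 (0.0551) or MyD88ko LPS replicate 2 (0.0506). The wt call held in 14 of 23 alternative settings, and was lost too under limma without trend (0.106), with only the groups compared (0.0592) and with replicate 2 as the only wt untreated library (0.0883). In MyD88ko cells the limma adjusted p passed the threshold without MyD88ko untreated replicate 1 (0.0391) and without wt LPS replicate 3 (0.0347).

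Ier3, an early-response gene whose product limits cell death and is no DNA-binding factor, rose with LPS in wt cells (chromosome 17, 35821684 to 35822923, plus strand, ENSMUSG00000003541). Its values were 590, 600 and 1202 in wt untreated against 2112, 1698 and 2077 in wt LPS. In MyD88ko cells they were 594, 424 and 550 untreated and 985, 781 and 965 with LPS. The 3 wt LPS libraries stood above all others, and MyD88ko LPS overlapped wt untreated through replicate 3 of the latter. The change in wt was 1.38 ± 0.25 (SE, log2), or 2.59-fold, with a limma adjusted p of 0.000634. In MyD88ko cells it was 0.81 ± 0.25, with a limma adjusted p of 0.0597, which passed the threshold without wt untreated replicate 3 (0.0162). With wt untreated replicate 2 as the only wt untreated library the wt change was 1.70 and its limma adjusted p 0.00164.

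Atf3, a stress-induced basic leucine zipper gene that acts mostly as a repressor, was low in all groups and passed the test in none of the 5 comparisons (chromosome 1, 191170296 to 191218039, minus strand, ENSMUSG00000026628). Its values were 14, 12 and 15 in wt untreated, then 8, 11 and 6 in wt LPS, 10, 15 and 3 in MyD88ko untreated, with 16, 40 and 5 in MyD88ko LPS. MyD88ko LPS held both the highest value and one near the lowest. The number of its unadjusted p values under 0.05 was 0 in limma.

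Of the 8 genes tested, 2 rose and 2 fell with LPS in wt cells, against 19.2% of all genes tested called in either direction, 9.55% higher and 9.66% lower. An unadjusted limma p under 0.05 was reached by 4 of the 8, against 32.0% of all genes. In MyD88ko cells 2 rose (Junb and Jun) and 1 fell (Fosl2), against 5.98% called in either direction, 2.58% higher and 3.4% lower, and 6 of the 8 had an unadjusted p under 0.05, against 21% of all genes. The median log2 difference of the 8 genes was -0.19 in wt and 0.36 in MyD88ko cells, where the medians over all genes tested were 0.01 and 0.00. Groups did not overlap for 3 genes higher (Junb, Ier3 and Jun) and 3 lower (Fosl2, Egr1 and Atf3) in wt, where 34.8% of all genes tested showed no overlap, 17.4% higher and 17.4% lower. In MyD88ko cells the same 3 were higher without overlap and Fosl2 and Egr1 were lower, against 25.5% of all genes, 12.2% higher and 13.3% lower.

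**Figure D3:**
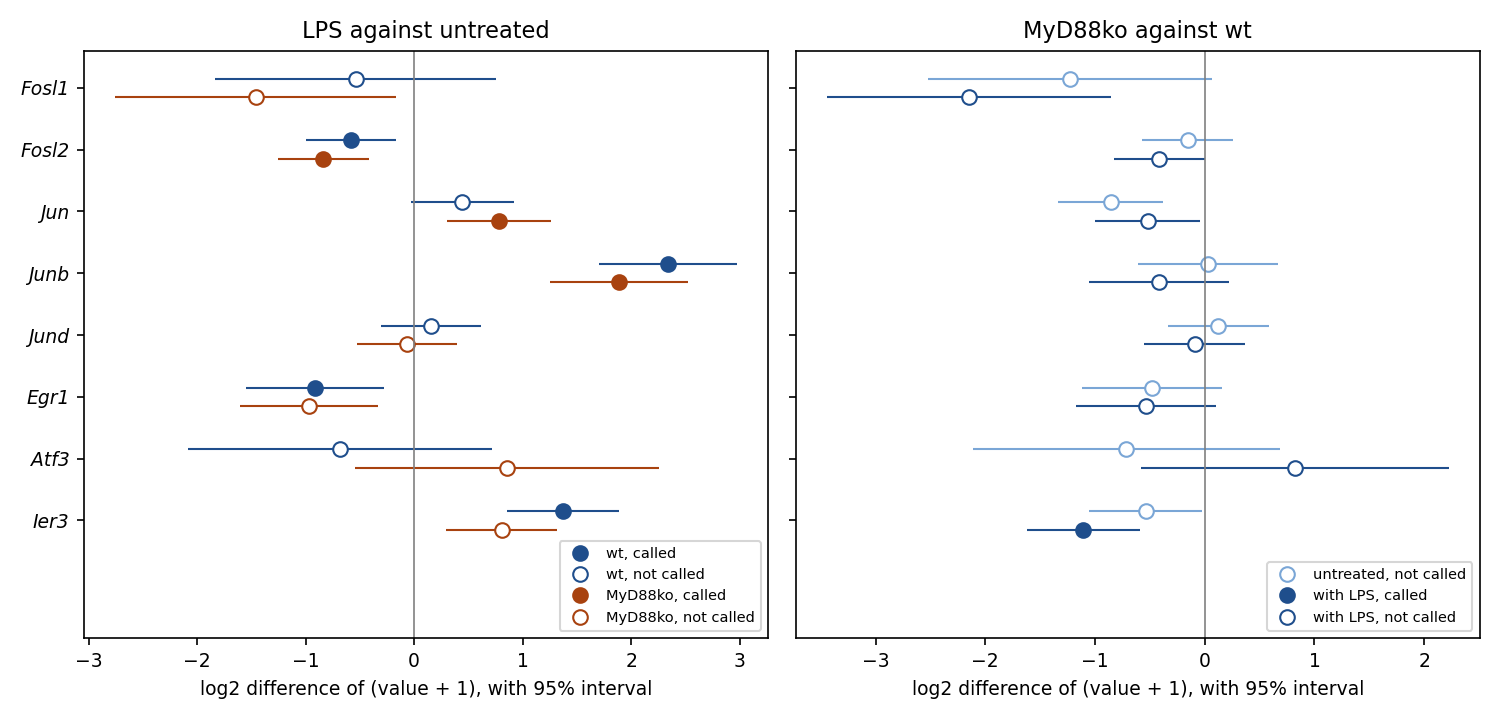
Log2 difference of each of the 8 genes tested, with its 95% interval from the limma fit, for LPS against untreated in each genotype and for MyD88ko against wt in each treatment. Filled points passed the adjusted p threshold of 0.05. The Junb intervals with LPS run from 1.70 to 2.98 in wt and from 1.25 to 2.53 in MyD88ko cells.

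The comparison of genotypes gives the genes that differed between the MyD88ko and wt libraries, and dependence on MyD88 itself was not tested. Without LPS, 0 of the 8 genes differed between MyD88ko and wt by limma, against 1.88% of all genes tested called, 0.791% higher and 1.09% lower. An unadjusted p under 0.05 was reached by 2 of the 8, against 15.5% of all genes. Those 2 were Jun, at -0.86 ± 0.23 (SE, log2; adjusted p = 0.0606), and Ier3, at -0.54 (0.299). Jun was lower in MyD88ko in 3 of 3 libraries against 3 wt libraries, 226 to 315 against 357 to 542. It passed the threshold without wt untreated replicate 2 (limma adjusted p = 0.0212) and without MyD88ko LPS replicate 3 (0.0309), whereas with replicate 2 as the only wt untreated library the difference was -0.49 (0.81). Fosl1 was also lower without overlap, at -1.23 (adjusted p = 0.35), and the share of all genes without overlap in this comparison was 20.4%, with 10.5% higher and 9.89% lower. The difference of Junb was 0.03, with a 95% interval of -0.61 to 0.67.

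With LPS, Ier3 was lower in MyD88ko than in wt cells, by -1.11 ± 0.25 (SE, log2), a 2.16-fold difference, and the limma adjusted p was 0.0232. It was the only gene of the 8 called in that comparison, where 1.49% of all genes tested were called, 0.452% higher and 1.04% lower. An unadjusted p under 0.05 was reached by 3 of the 8, against 12% of all genes. The call was lost without wt LPS replicate 1 (limma adjusted p = 0.123) or 3 (0.0976) or MyD88ko LPS replicate 2 (0.116). Fosl1 was lower by -2.15 ± 0.62, at 1 to 9 against 16 to 35, with a limma adjusted p of 0.104. Groups did not overlap for 4 genes, all lower in MyD88ko (Ier3, Fosl1, Jun and Fosl2), against 15.8% of all genes, 7.54% higher and 8.31% lower. The difference of Jun was -0.52 (adjusted p = 0.357) and that of Fosl2 -0.41 (0.421). Junb differed by -0.42, with a 95% interval of -1.06 to 0.22. Without MyD88ko LPS replicate 3 the difference of Junb was -0.88, with a limma adjusted p of 0.0901. The part of the genotype difference in mesenchymal markers given above in these values was not tested.

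The difference of the LPS responses between genotypes was tested by itself, and it was called by limma for 0 of the 8 genes, of which 0 had an unadjusted p under 0.05. Of all genes tested, 0.0161% were called, 0.00807% in each direction, and 9.18% had such an unadjusted p. The difference of responses (MyD88ko minus wt) was -0.45 for Junb, with a 95% interval of -1.35 to 0.45. Without MyD88ko LPS replicate 3 it was -0.91 for Junb (limma adjusted p = 0.374). With all 12 libraries it was -0.57 for Ier3, with an interval of -1.30 to 0.16. For Jun it was 0.34 (-0.34 to 1.01), for Fosl2 -0.26 (-0.85 to 0.33) and for Egr1 -0.06 (-0.96 to 0.84). These intervals all include 0. For Jun, Fosl2 and Egr1 they reach the size of the wt change only in the direction of a larger change in MyD88ko cells. In the direction of a smaller change in MyD88ko cells they end short of that size. The 4 comparisons share groups in pairs and are not independent.

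In the order of levels, wt LPS and MyD88ko LPS overlapped for Junb, through replicate 3 of the latter. Both stood clear of the untreated groups, which overlapped each other. For Ier3, wt LPS stood clear of MyD88ko LPS, which overlapped wt untreated, and wt untreated overlapped MyD88ko untreated. For Fosl2 the order was wt untreated, MyD88ko untreated, wt LPS and MyD88ko LPS, with overlap only between the first pair. For Jun it was wt LPS, wt untreated, MyD88ko LPS and MyD88ko untreated, with overlap only between wt untreated and MyD88ko LPS. For Jund, Egr1, Atf3 and Fosl1 every neighbouring pair overlapped.

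The profile of each called gene over the 12 libraries was compared with those of all other tested protein-coding genes by the root mean square difference of centred log2 values. For Fosl2 the nearest were Psma2 at 0.11, Prdx1 at 0.13 and Polr2b at 0.16, where the root mean square of the Fosl2 profile itself was 0.42. The nearest to Jun were C2cd2l at 0.22, Pi4k2b at 0.22 and Srxn1 at 0.23 (own size 0.52). For Junb they were Vdac3-ps1 at 0.47, Prrc2a at 0.47 and Phkg1 at 0.49 (own size 1.14), of which Vdac3-ps1 bears a pseudogene's name but is classed as protein-coding in the deposited tables. Egr1 was nearest to Nepro at 0.31, Exo5 at 0.31 and Fgf2 at 0.32 (own size 0.65), and Ier3 to Slc11a2 at 0.27, Lrrc32 at 0.32 and Srebf2 at 0.32 (own size 0.75). No other Jun, Fos or immediate-early gene of the 10 was among these.

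Genes of related lists were counted next to the 10, and each count is read against the share of all genes tested that limma called in the same comparison. The lists were chosen with earlier results of these data known, so a count above that share describes the list only. Of 13 other AP-1 and small bZIP genes tested, Atf5 rose with LPS in wt, by 1.07 (log2, limma adjusted p = 0.00645), and Atf7 in MyD88ko cells, by 1.17 (0.0305). Of all genes tested, 9.55% were called higher with LPS in wt and 2.58% in MyD88ko cells. The list had 0 calls in the genotype comparisons by limma, where 1.88% of all genes were called untreated and 1.49% with LPS. It had 2 genes at an unadjusted p under 0.05 untreated and 1 with LPS, against 15.5% and 12% of all genes. Of 26 other immediate-early genes tested, 2 rose and 1 fell in wt with LPS, where 9.55% of all genes were called higher and 9.66% lower, so the count is no higher than that background. They were Gadd45b, a growth-arrest gene, by 1.40 (limma adjusted p = 0.000822), Ctgf, a matricellular protein gene, by 0.81 (0.0189), and Plk2, a kinase gene, at -1.13 (0.0268). The wt groups of Plk2 overlapped, at 302, 93 and 178 untreated and 62, 106 and 71 with LPS. In MyD88ko cells 1 rose, Ctgf, by 0.97 (0.0157), where 2.58% of all genes were called higher. Ctgf was also higher in MyD88ko LPS than in wt LPS, by 1.02 (0.0272), and Plk2 lower in MyD88ko untreated than in wt untreated, by -1.40 (0.0403). The list's median with LPS was 0.30 in wt and 0.04 in MyD88ko cells.

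Of 18 genes of MAP kinases upstream, 0 rose and 2 fell with LPS in wt, close to the 9.66% of all genes called lower there. They were Map2k1 (MEK1) at -1.39 (limma adjusted p = 0.000441) and Map2k3 at -1.14 (0.00381). In MyD88ko cells, where 3.4% of all genes were called lower, 0 rose and 2 fell, Map2k3 at -1.55 (0.00114) and Map2k7, a kinase of JNK, at -1.01 (0.0368). The list's median was -0.34 in wt and -0.26 in MyD88ko cells. With LPS an unadjusted limma p under 0.05 was reached by 8 of the 18 in wt and 4 in MyD88ko cells, against 32% and 21% of all genes. Between genotypes it was reached by 6 untreated and 1 with LPS, against 15.5% and 12%. Of 14 MAP kinase phosphatases and brakes, 1 rose and 2 fell in each genotype, against 19.2% of all genes called in either direction in wt and 5.98% in MyD88ko cells. Spry2 rose by 1.23 (0.000913) in wt and 0.90 (0.0243) in MyD88ko cells, while Dusp16 was at -1.02 (0.0167) and Spred2 at -1.51 (0.0304) in wt, and Dusp5 at -1.52 (0.0118) and Dusp1 at -0.86 (0.0199) in MyD88ko cells. Of the 6 genes of SRF and its cofactors, 0 passed in any comparison by limma. An unadjusted p under 0.05 was reached by 1 with LPS in wt, against 32% of all genes. Between genotypes with LPS it was reached by 1, against 12% of all genes.

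Of 8 genes for proteins that bind AU-rich transcripts, 0 rose and 4 fell with LPS in wt, where 9.66% of all genes were called lower. These proteins set the stability of short-lived messages such as those of Fos and Jun genes. Elavl1 (HuR), which stabilises them, was at -1.79 (limma adjusted p = 4.6e-05), Zfp36l2, which promotes their decay, at -1.34 (0.00117), Hnrnpd (AUF1) at -1.51 (0.00188) and Tial1 at -1.23 (0.0133). In MyD88ko cells Elavl1 was the only one called, at -1.75 (0.000288), where 3.4% of all genes were called lower. The list's median was -0.72 in wt and -0.37 in MyD88ko cells, against 0.01 and 0.00 over all genes tested.

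Of 21 genes with AP-1 sites in textbooks, which include Fosl1, 7 rose and 0 fell with LPS in wt, where 9.55% of all genes were called higher. In MyD88ko cells 3 rose and 0 fell, where 2.58% of all genes were called higher. As this list too was chosen with earlier results of these data known, its counts are no test of AP-1 activity. In wt the smallest p values were those of Cdkn1a, a cell-cycle inhibitor gene, by 1.88 (limma adjusted p = 3.28e-05), Ccl2, a monocyte chemokine gene, by 3.46 (5.45e-05), Hmox1, heme oxygenase, by 1.65 (5.86e-05) and Il6 by 2.66 (0.00375). In MyD88ko cells Ccl2 rose by 3.76 (0.000166), Hmox1 by 1.12 (0.0061) and Cdkn1a by 1.07 (0.0118). Between genotypes 0 were higher in MyD88ko, 3 were lower untreated and 6 were lower with LPS, where 1.09% and 1.04% of all genes were called lower. Untreated, Mmp9 was at -2.94 (limma adjusted p = 0.000299), Ccl2 at -2.91 (0.00162) and Mmp3 at -3.37 (0.0367). With LPS, Mmp9 was at -2.77 (0.000333), Ccl2 at -2.61 (0.00381), Il6 at -3.22 (0.00539) and Mmp3 at -3.86 (0.0157). The list's median was 0.81 with LPS in wt, 0.34 in MyD88ko cells and -0.88 between genotypes with LPS. For the difference of the responses the list had 0 calls by limma, against 0.0161% of all genes. It had 3 genes at an unadjusted p under 0.05 there, against 9.18% of all genes.

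**Figure D4:**
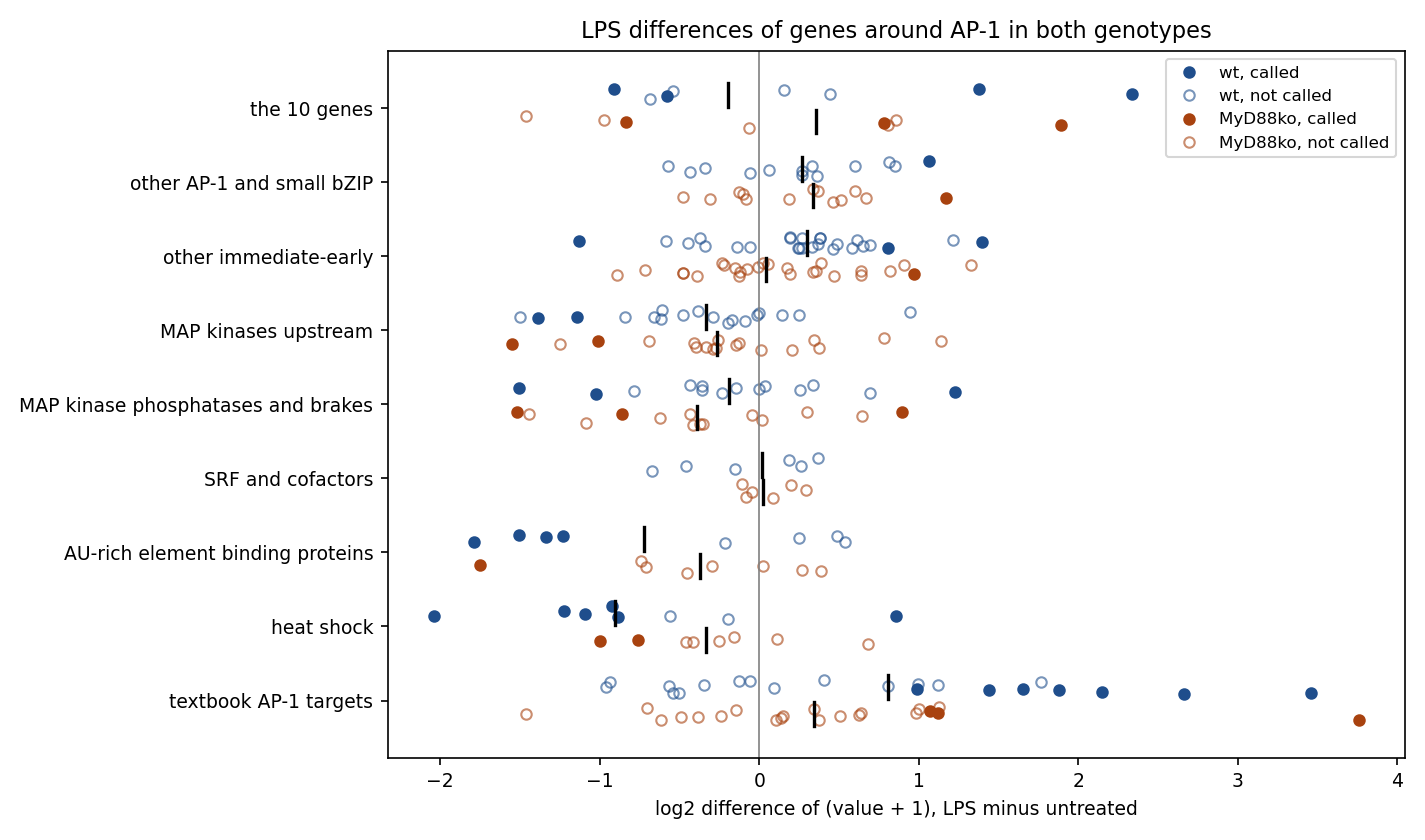
Log2 difference with LPS of each tested gene among the 10 genes and in the related lists, in wt and in MyD88ko cells, with 1 point per gene, the list median as a bar and called genes filled. The AU-rich binding list has its median at -0.72 in wt, and the list of textbook AP-1 targets at 0.81.

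Heat-shock genes, which respond to handling of cells and to stress, were counted in the same libraries. Of 8, 1 rose and 5 fell with LPS in wt, where 9.55% of all genes were called higher and 9.66% lower. In MyD88ko cells 0 rose and 2 fell, where 2.58% of all genes were called higher and 3.4% lower. Hsph1 was at -2.04 (limma adjusted p = 1.17e-05), Dnajb1 at -1.22 (0.00114), Dnaja1 at -1.09 (0.00131) and Hspa8 at -0.89 (0.00151) in wt. In MyD88ko cells Hsph1 fell with a limma adjusted p of 0.0142, and Hspb1 was at -0.76 (0.0305). Between genotypes 0 of them were called by limma, against 1.88% of all genes untreated and 1.49% with LPS. An unadjusted p under 0.05 was reached by 4 untreated and 3 with LPS, against 15.5% and 12% of all genes. For the difference of the LPS responses 0 of the 8 were called by limma, against 0.0161% of all genes. There 5 of the 8 had an unadjusted p under 0.05, against 9.18% of all genes, and the list's median was 0.67 (MyD88ko minus wt). The part of handling, of the library series or of the epithelial markers in the values of the 10 genes was not tested.

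Several of the 10 genes overlap a gene on the other strand, and whether the counting used strand is not given in the sources used here. Junb overlaps the 3′ end of Prdx2, a peroxiredoxin gene, by 351 bp. Prdx2 had values of 1577, 1502 and 1558 in wt untreated, then 1375, 1079 and 1393 in wt LPS, 1727, 1699 and 1637 in MyD88ko untreated, with 1171, 1124 and 1027 in MyD88ko LPS. With LPS it was thus lower where Junb was higher, at -0.28 (limma adjusted p = 0.307) in wt and -0.61 (0.0496) in MyD88ko cells. Fosl1 overlaps Ccdc85b by 2766 bp, and Ccdc85b was higher with LPS in wt, by 1.03 (0.0476), where Fosl1 was at -0.54 (0.592). Jun overlaps Junos by 689 bp, which had at most 9 in every library. Jund overlaps Gm11175 by 919 bp and Atf3 overlaps Gm24748 by 108 bp, and values of these were not analysed here. Reads from overlapping genes cannot be assigned without strand, so the low values of Fosl1 are uncertain. The same limit applies to Junb, whose overlap with Prdx2 lies at the 3′ ends of both genes, where 3′ reads fall.

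In the authors' deposited table of tests for wt, Junb had a log2 change of 2.31 with an adjusted p of 5.02e-06 and Ier3 one of 1.30 with 0.0298, and these were the 2 of the 10 genes under 0.05. For MyD88ko cells with LPS, the authors' deposited table gave Junb 2.05 with 0.000799, the only one of the 10. For MyD88ko against wt with LPS, the authors' deposited table gave Ier3 -1.11 with an unadjusted p of 0.00722 and an adjusted p of 0.5, and 0 of the 10 genes were called there or between the untreated groups.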

How the data were processed

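The 12 libraries were 3′ mRNA libraries read on an Ion Proton. TopHat2, Bowtie2, DESeq and the build mm10 are named in the submitters' processing notes, with no version or role. The values deposited by the authors are scores: normalized read counts per gene, given as whole numbers. Between deposited tables, 0 of the 166719 repeated values differed. The authors also deposited, per comparison, a p-value, an adjusted p and a log2 fold change per gene, which are quoted only where named.

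Rounding leaves gaps among low values, which gave each library's relative depth as size factors of 0.634 to 1.2917, up to a common factor and without a molecule count. Values were taken as log2(value + 1) and fitted with limma 3.58.1 in R 4.3.3 (trend, robust), 12 libraries in a single fit on the 4 groups, which leaves 8 residual degrees of freedom. Tests were two-sided, with Benjamini-Hochberg adjustment over the 12385 genes that had values in all libraries and reached a mean of 10 in any group, called under 0.05. The fit was tested on simulated data. Folds are on the log2(value + 1) scale and understate the change of genes with low values. Loci and overlaps come from GENCODE M21 and promoters from RefSeq on GRCm38.p6.

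All 10 genes were named, called or not. Of each related list up to 4 called genes with the smallest p were named. For each called gene, the 3 nearest protein-coding profiles without predicted names were given. The genes, lists and tests were chosen with earlier results of these data known, and 3 motifs were added after promoter sequences were read. Alternatives were 2 other normalizations, limma without trend, voom weights, 2 other filters, pseudocounts of 0.5 and 5, only the groups compared, a replicate block, leaving out each library, and leaving out wt untreated replicates 1 and 3 together.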

Additional observations from a re-analysis of the deposited data

How the results depend on the processing

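Over 23 alternative settings, 902 values of the tested genes were recomputed, 43 calls were lost, 11 were gained and 0 reversed; 16 values that were called in neither fit changed sign. Junb with LPS was called in all 23 in both genotypes, at log2 2.17 to 2.67 in wt and 1.43 to 2.23 in MyD88ko cells, and Ier3 in wt in all 23, at 1.20 to 1.71. The number of genes called with LPS in wt was 4 and became 2 under limma without trend, 2 with only the groups compared, and 2 with replicate 2 as the one wt untreated library, and ranged from 2 to 4 when each library was left out. With LPS in MyD88ko cells it was 3 and became 1 without trend and 5 with the replicate block, with a range of 1 to 4 on leaving out each library. Between untreated genotypes it was 0 and became 1 with the replicate block, with a range of 0 to 1, and between LPS genotypes 1 became 0 without trend, with a range of 0 to 1. The difference of the responses was called for 0 genes in each of the up to 22 settings in which it was fitted. The cause of these shifts was not tested.

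Same-numbered libraries of different groups deviated from their group means with a correlation of -0.11 to 0.17 (median 0.035), over 0.1 in 2 of 18 pairs. Differently numbered pairs had a median of -0.014. The 18 pairs include pairs of different genotypes. Untreated and LPS libraries of the same number correlated at 0.059, 0.171 and 0.058 in wt and at 0.125, 0.037 and -0.050 in MyD88ko cells. These values do not settle whether libraries were paired. The main fit took the numbers as names. With the replicate block, Egr1 (limma adjusted p = 0.0418) and Ier3 (0.0372) gained a call with LPS in MyD88ko cells, Jun (0.0389) gained one between untreated genotypes and Fosl2 (0.0609) lost its call in wt. Rescaling factors of 0.992 to 1.01 changed no call. Fos, Fosb, Fosl1 and Atf3 had values of at most 48, where few reads stand behind each value.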
